A study of Homo sapiens with 9 samples.

Results

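The proteasome genes described here are 41 genes of the core particle, the regulatory particle and the activators of the proteasome, taken by symbol: PSMA1 to PSMA7, PSMB1 to PSMB10, PSMC1 to PSMC6, PSMD1 to PSMD14 and PSME1 to PSME4. Of these, 36 were measured by 58 probe sets that the array annotation assigns to exactly 1 of the symbols, out of 11963 genes and 22277 probe sets in all. PSMA6, PSMC5, PSMD7, PSMD13 and PSME2 had no such probe set here and were not analysed. Each gene is given by its brightest probe set, the one with the highest mean over 9 arrays. The rule takes genes by symbol and uses no measured value, but the members were chosen with earlier results of these data known.

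The values come from Affymetrix arrays of LNCaP, a human prostate cancer line derived from a lymph node metastasis, which carries an androgen receptor and responds to androgen. All cells were first kept for 2 days in 10% charcoal-stripped serum, which is poor in steroids. A first group of 3 arrays then received the solvents ethanol and DMSO (labelled vehicle), a second group of 3 received 1 nM R1881, a synthetic androgen, with DMSO (labelled R1881), and the remaining 3 received 1 nM R1881 with 20 µM gedunin, a plant limonoid known as an inhibitor of HSP90 function. No group had gedunin without androgen. Every protocol gives 24 h of treatment, but 6 h stands in the titles of the group labelled R1881, so the time of that group is not settled. The labels call the 3 arrays of a group biological replicates without saying what was separate, and p-values measure the spread between these arrays.

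The proteasome is the main protease for ubiquitin-tagged proteins in the cytosol and nucleus. Its 20S core is a barrel of alpha and beta rings, in which 3 of the beta subunits are active proteases, and its 19S cap holds a base with ATPase subunits that unfold the substrate and a lid that removes the ubiquitin chain. In many cells interferon exchanges the 3 active subunits for inducible ones, which forms the immunoproteasome, and the core can also be opened by other caps, the PA28 rings and PA200. When proteasome activity falls short, the transcription factor NRF1, encoded by NFE2L1, is known to raise the genes of most subunits together through antioxidant response elements.

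Array medians of intensity lay between 52.4 and 54.5, and log2 values of all genes correlated with r from 0.996 to 0.998 within groups, computed across genes, which are no replicates of each other. All 10 measured luminal prostate markers, of 12 listed, lay above the lowest array median on every array. Their summed intensity ranged from 31751 to 34267 on arrays labelled vehicle, from 9123 to 9550 on arrays labelled R1881 and from 17816 to 19015 on gedunin arrays. The sums differed mostly through KLK3 and KRT18, and the markers did not move together. Under the label R1881, 5 of the 10 were lower than under vehicle (limma, adjusted p under 0.05). Another 4, HOXB13, FOLH1, EPCAM and CDH1, were higher. KLK3, the gene of prostate-specific antigen, measured 11839 ± 513 under the label vehicle and 1341 ± 104 under the label R1881, with 7216 ± 384 on gedunin arrays (intensity, SD, n = 3), where androgen is known to raise it. FKBP5, also raised by androgen, measured 1815 ± 147 under the label vehicle and 45.1 ± 3.15 under the label R1881. The directions below therefore follow labels that these androgen-induced genes go against, and each comparison with the arrays labelled vehicle or R1881 has to be read with that in mind. Of the leukocyte markers 3 of 7, of the fibroblast markers 6 of 8 and of the basal epithelial markers 0 of 4 lay above the lowest array median on every array. The summed leukocyte markers ranged from 1050 to 1095, from 618 to 716 and from 786 to 790.1 on arrays labelled vehicle, labelled R1881 and gedunin arrays, mostly through LCP1, while PTPRC, which defines leukocytes, stayed under that median with group means of 28.3 to 29.5. The summed fibroblast markers ranged from 869 to 957, from 1891 to 2138 and from 1127 to 1161, mostly through FN1, and the basal markers from 120.3 to 133 over all arrays. The part of the luminal, leukocyte and fibroblast levels in the proteasome values was not tested. In these bulk RNA samples fewer cells of a type and less RNA per cell cannot be told apart.

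Proteasome genes were mostly higher on gedunin arrays than on either other group. Against the arrays labelled R1881, 26 of 36 genes rose and 3 fell, which is 72.2% and 8.33% of the measured members, where 14.0% and 13.4% of all 11963 genes tested rose and fell (limma with Benjamini-Hochberg adjustment over all genes, adjusted p under 0.05, as for every call below). The median log2 fold change was 0.29 over the members and -0.01 over all genes. Against the arrays labelled vehicle, 22 rose and 3 fell, or 61.1% and 8.33%, beside 15.0% and 11.9% of all genes, with medians of 0.25 and -0.01. The 3 that fell, PSMC4, PSMD5 and PSME3, became 5 under 4 of the alternative settings. These comparisons share the gedunin arrays. From labelled vehicle to labelled R1881, 4 members were higher and 14 lower under the label R1881, or 11.1% and 38.9%, beside 16.7% and 13.6% of all genes, with medians of -0.06 and 0.00. The 4 were PSMA1, PSMA4, PSMD4 and PSME1, and the 14 comprised 5 of 13 subunits of the 20S core, 6 of 14 of the 19S base and lid, PSMD5, PSME3 and PSME4. The count of 4 fell to 2 without vehicle replicate 1 and rose to 7 when the arrays were quantile-normalised again. The changes were small: on the log2 scale they ran from -0.37 to 0.98 between gedunin and labelled R1881, where the largest, of PSMD8, was 1.97-fold. Only 25 members have a probe set whose identifier ends in a plain _at. With these, 15 rose and 3 fell from labelled R1881 to gedunin and 10 rose and 2 fell from labelled vehicle. In either direction 18 and 12 of the 25 members were called in these comparisons, beside 1901 and 1897 of the 8361 genes. The shares of all genes that rose and fell under this choice are not given separately.

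**Figure D1:**
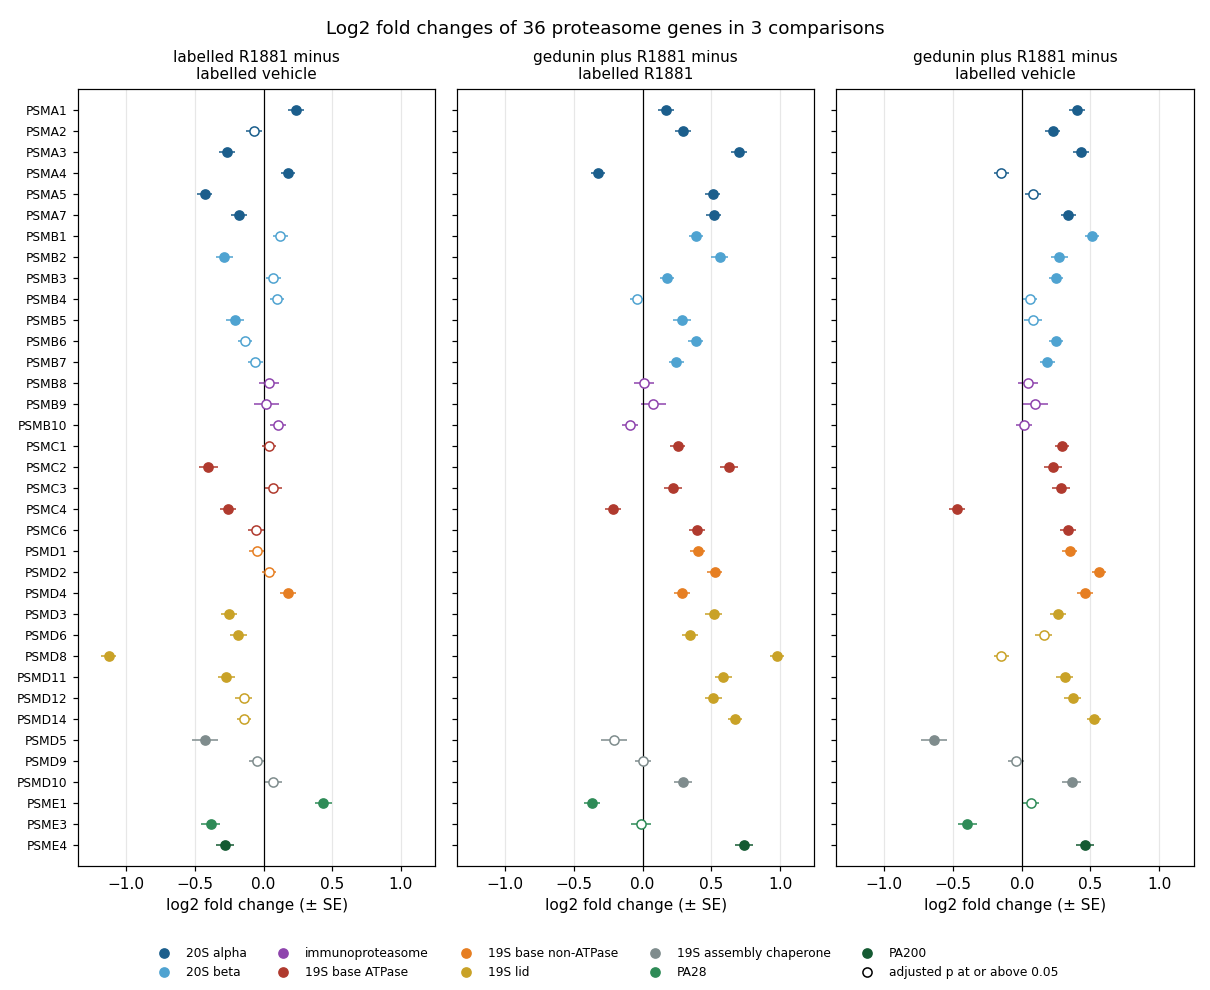
Log2 fold change (x axis, ± SE from limma) of the 36 measured proteasome genes (y axis, by class) in the 3 comparisons, each from 3 arrays per group. Filled points have an adjusted p under 0.05. In the middle panel 26 genes rose and 3 (PSMA4, PSMC4 and PSME1) fell, and PSMD8 stands furthest from 0 in the left and middle panels.

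Most members are bright on these arrays, and bright genes were called more often. Among the 1160 genes with a mean log2 intensity above 9, 36.6% rose and 24.9% fell between labelled R1881 and gedunin, while of the 26 members among them 23 rose and 2 fell. Against the arrays labelled vehicle, 29.1% of these bright genes rose and 23.3% fell, and of the bright members 19 rose and 0 fell. From labelled vehicle to labelled R1881, 30.0% were higher and 30.9% lower, and of the bright members 4 were higher and 9 lower. In that comparison the share of bright members that were lower, 34.6%, was near that of bright genes, while 88.5% of the bright members rose from labelled R1881 to gedunin.

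The same picture appeared array by array. The median member, set against its own mean over the arrays labelled vehicle, stood at -0.11, -0.07 and -0.10 on the log2 scale on the arrays labelled R1881 and at 0.23, 0.19 and 0.30 on the gedunin arrays, and at -0.03, 0.04 and -0.02 on the arrays labelled vehicle themselves. Every gedunin array lay above every other array, and every array labelled R1881 below every other. On the gedunin arrays 28 to 30 of 36 members were above their vehicle mean. Vehicle replicate 2 differed from its group in that 31 of 36 members were above the group mean there, against 5 and 12 on the other vehicle arrays. By the order of group means, 17 of 36 members (47.2%) were highest with gedunin and lowest under the label R1881, an order that 13.6% of all genes had, and a further 10 (27.8%) were highest with gedunin and lowest under the label vehicle, against 14.4% of all genes. The other 9 members followed other orders: PSMB4, PSMB10 and PSME1 ran from labelled R1881 over gedunin to labelled vehicle, PSMC4, PSMD5 and PSME3 from labelled vehicle over labelled R1881 to gedunin, PSMD8 and PSMD9 from labelled vehicle over gedunin to labelled R1881, and PSMA4 from labelled R1881 over labelled vehicle to gedunin.

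**Figure D2:**
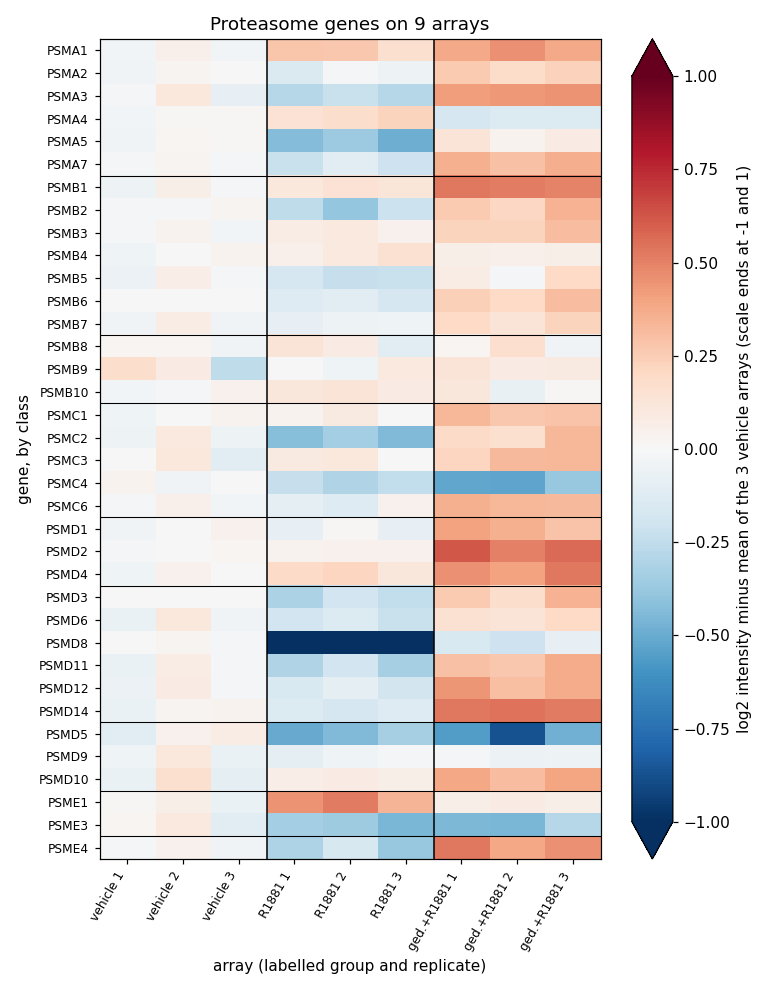
Log2 intensity of each proteasome gene (rows, by class) on each of 9 arrays (columns), minus the gene's mean over the 3 arrays labelled vehicle. Red is higher and blue lower, and the colour scale ends at -1 and 1. Most rows are red on the 3 gedunin arrays, while PSMC4, PSMD5 and PSME3 are blue there, and PSMD8 is blue past the end of the scale on the 3 arrays labelled R1881.

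**Figure D3:**
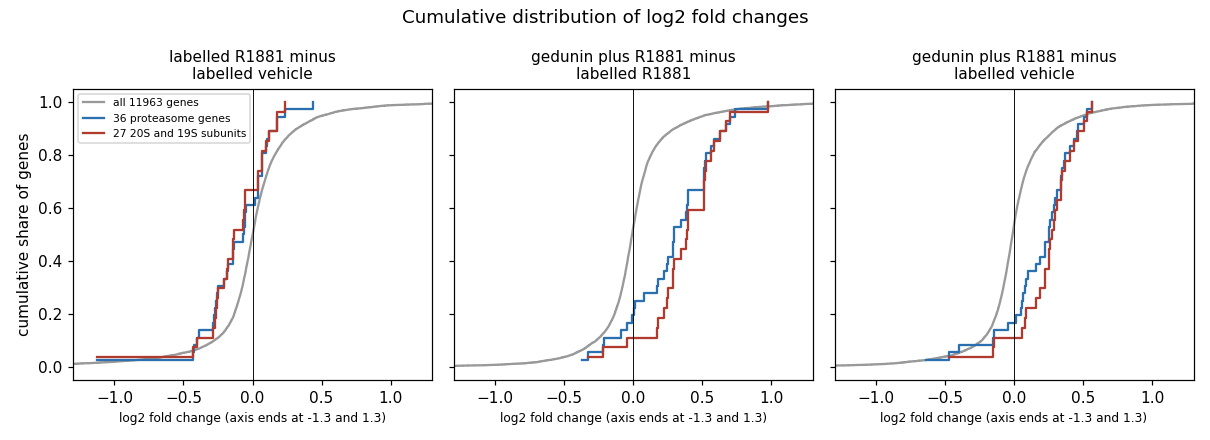
Cumulative share (y axis) of genes with a log2 fold change up to the value on the x axis, for all 11963 genes, the 36 proteasome genes and the 27 measured subunits of the 20S core and 19S cap. In the middle and right panels the curves of the proteasome genes lie to the right of all genes over most of the range, with medians of 0.29 and 0.25.

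The alpha subunits form the outer rings of the 20S core and its gate. Of 6 measured, 5 rose between labelled R1881 and gedunin and PSMA4 fell, and against labelled vehicle 4 rose and 0 fell. PSMA3 measured 1100.2, 1196 and 1049 on the arrays labelled vehicle, 912, 952 and 913 on those labelled R1881 and 1485, 1501 and 1523 with gedunin. The 3 groups of PSMA3 did not overlap, with gedunin highest and the label R1881 lowest, and the rise from labelled R1881 to gedunin was 1.62-fold (0.70 ± 0.06, SE, on the log2 scale, adjusted p = 1.12e-06). PSMA5 measured 893, 930.3 and 923 under the label vehicle, 679, 711 and 651 under the label R1881 and 1002, 936 and 969 with gedunin. It was lower under the label R1881 than under vehicle (-0.43 ± 0.06, adjusted p = 5.43e-05) and rose by 0.51 to gedunin, whose values lay close to those labelled vehicle (0.08 ± 0.06, adjusted p = 0.351). On the log2 scale, as for all changes below that are not given as a fold, PSMA7 rose by 0.52 and 0.34 to gedunin from labelled R1881 and labelled vehicle, PSMA1 by 0.17 and 0.40, and PSMA2 by 0.29 and 0.22. PSMA4 went the other way, and was taken up here after its values were seen, with 1655, 1706 and 1706 under the label vehicle, 1864, 1912 and 1966 under the label R1881 and 1501, 1537 and 1537 with gedunin. Its gedunin arrays were the lowest 3 of 9 and its arrays labelled R1881 the highest, with a change of -0.33 ± 0.05 between them (adjusted p = 0.000265). PSMA4 had 1 probe set and 2 exactly equal deposited values in a group.

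The beta subunits form the inner rings, and PSMB5, PSMB6 and PSMB7 carry the chymotrypsin-like, caspase-like and trypsin-like sites. Of 7 measured beta subunits 6 rose and 0 fell between labelled R1881 and gedunin, and 5 rose and 0 fell from labelled vehicle to gedunin. PSMB5 measured 817, 890.0 and 845 on the arrays labelled vehicle, then 757, 725 and 729.6 on those labelled R1881, then 894, 839 and 975 with gedunin. It was lower under the label R1881 than under both others, while its gedunin and vehicle values overlapped (0.29 ± 0.06 from labelled R1881 to gedunin, adjusted p = 0.00399). Its difference between the labels R1881 and vehicle (-0.21 ± 0.06, adjusted p = 0.0283) lost its call with the quantile normalisation repeated (adjusted p = 0.0831) and without vehicle replicate 2, vehicle replicate 3, R1881 replicate 2 or R1881 replicate 3, with adjusted p of 0.0989, 0.064, 0.0792 and 0.0632. PSMB6 measured 915, 919 and 915, then 840.3, 848 and 818, then 1084, 1052 and 1137 in the same order of groups. PSMB6 rose on gedunin arrays above both other groups without overlap, by 0.38 and 0.25 from labelled R1881 and labelled vehicle. PSMB7 measured 1121, 1209 and 1125 under the label vehicle, 1087, 1108 and 1117 under the label R1881 and 1319, 1262 and 1345 with gedunin. Its gedunin arrays were again the highest 3 (0.24 ± 0.06 against labelled R1881, adjusted p = 0.00421). That rise was 0.13 and lost its call with the quantile normalisation repeated (adjusted p = 0.062), and the rise from labelled vehicle (0.18 ± 0.06, adjusted p = 0.0241) lost its call without vehicle replicate 1, vehicle replicate 3, gedunin replicate 1 or gedunin replicate 3 (adjusted p = 0.0881, 0.0868, 0.0726 and 0.0856). All 3 catalytic genes thus rose with gedunin in the fit as given, by 0.24 to 0.38 from labelled R1881. PSMB1 was the brightest of the beta genes, at 2808, 3026 and 2874 under the label vehicle, 3119.9, 3203 and 3152 under the label R1881 and 4176, 4125 and 4087 with gedunin. Its gedunin values stood clear of the other 6 arrays and rose by 0.51 from labelled vehicle (adjusted p = 7.32e-06). A second bright PSMB1 probe set rose by 0.58, and a dim one, with a mean intensity of 28.1, was not called. Among the remaining beta genes PSMB2 rose by 0.56 and PSMB3 by 0.18 from labelled R1881, and PSMB4 was at -0.04 ± 0.05 and not called (adjusted p = 0.651). A dimmer PSMB2 probe set, with a mean intensity of 346, was called in no comparison. It was at 0.16 from labelled R1881 to gedunin (adjusted p = 0.369).

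The inducible subunits PSMB8, PSMB9 and PSMB10 take the places of PSMB5, PSMB6 and PSMB7 in the immunoproteasome, and none of the 3 was called in any comparison. PSMB8 measured 31.0, 31.0 and 29.9 under the label vehicle, 33.5, 32.5 and 28.4 under the label R1881 and 31.0, 34.3 and 29.8 with gedunin. PSMB9 measured 36.2, 33.8 and 26.8, then 32.1, 31.1 and 34.1, then 34.9, 33.8 and 34.0 in the same order of groups. All of these lie under 52.4, the lowest median of an array, so both genes are dimmer than the typical probe set on every array. PSMB10 measured 95.8, 96.9 and 101, then 106, 107 and 104, then 106, 92.9 and 98.6, above that median on every array, and its gedunin values overlapped those of both other groups (-0.09 ± 0.06 from labelled R1881, adjusted p = 0.322). On each array the log2 value of an inducible subunit was also set against that of its constitutive partner, and 9 such differences were compared between groups by exact two-sided permutation tests, of which the smallest possible p is 0.1. For PSMB10 against PSMB7 the difference changed by -0.34 from labelled R1881 to gedunin and by -0.17 from labelled vehicle to gedunin, and was 0.17 between the labels R1881 and vehicle (exact p = 0.1 and 0.18 adjusted over the 9 tests in each). The differences of PSMB8 and PSMB9, which are dim on all 9 arrays, mirror PSMB5 and PSMB6 and are not read here. None of the 9 reached an adjusted p under 0.05, which this number of arrays cannot give.

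The PSMC genes encode the ATPase ring of the 19S base. Of 5 measured, 4 rose and PSMC4 fell, both from labelled R1881 and from labelled vehicle to gedunin. PSMC2 measured 1207, 1339 and 1209.9 under the label vehicle, 931, 990.4 and 921 under the label R1881 and 1425, 1395 and 1575 with gedunin. Its 3 groups did not overlap, and it rose 1.54-fold from labelled R1881 to gedunin (0.63 ± 0.07, adjusted p = 8.86e-06). A dimmer PSMC2 probe set disagreed on the labels R1881 and vehicle, at 0.25 (adjusted p = 0.0117) where the brighter one gave -0.40 ± 0.07 (adjusted p = 0.000398), with -0.08 and no call when both were averaged (adjusted p = 0.385), but also rose to gedunin from labelled R1881, by 0.23. The PSMC2 rise from labelled vehicle (0.23 ± 0.07, adjusted p = 0.022) lost its call without vehicle replicate 1, vehicle replicate 3 or gedunin replicate 3 (adjusted p = 0.0865, 0.0842 and 0.102). PSMC6, PSMC1 and PSMC3 rose by 0.39, 0.25 and 0.22 from labelled R1881 and by 0.34, 0.29 and 0.29 from labelled vehicle. PSMC4, chosen for mention after its values were seen, measured 568, 541 and 555, then 474, 451 and 469, then 387, 385 and 427 in the same order of groups. It fell in steps that did not overlap, by 0.26 from labelled vehicle to labelled R1881 and by 0.22 from there to gedunin (adjusted p = 0.00427 and adjusted p = 0.0125).

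The other base subunits are PSMD1 and PSMD2, the scaffold on which cofactors dock, and PSMD4, a ubiquitin receptor. All 3 rose with gedunin from both other groups. PSMD2 measured 714, 724 and 732 under the label vehicle, 742, 744 and 745 under the label R1881 and 1114, 1026 and 1069.6 with gedunin. The vehicle and R1881 values of PSMD2 lay within a few percent of each other and the gedunin values far above them, 1.48-fold over labelled vehicle (0.56 ± 0.05, adjusted p = 2.99e-06). PSMD4 rose by 0.46 and PSMD1 by 0.35 from labelled vehicle, and from labelled R1881 by 0.29 and 0.40.

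The 19S lid holds PSMD14, the metalloprotease that cuts ubiquitin from the substrate, and scaffold subunits around it. All 6 measured lid genes rose from labelled R1881 to gedunin, with a median of 0.55, the highest of the classes with over 1 member, and 4 of 6 rose from labelled vehicle. PSMD14 measured 678, 724 and 726 under the label vehicle, 644, 631 and 649.7 under the label R1881 and 1020.1, 1030.5 and 1017 with gedunin. Its 3 gedunin values were close together and clear of the other 6 arrays, 1.59-fold over labelled R1881 (0.67 ± 0.05, adjusted p = 5.23e-07) and 1.44-fold over labelled vehicle (adjusted p = 5.42e-06). PSMD11, a lid scaffold subunit, measured 637, 701 and 659, then 541, 583 and 529, then 816, 803 and 859. The groups of PSMD11 stood apart, with the label R1881 lowest and gedunin highest (0.59 ± 0.06, adjusted p = 7.82e-06). Its dimmer probe set, with a mean intensity of 53.7, was called in no comparison. PSMD3 and PSMD12 each rose by 0.52 and PSMD6 by 0.34 from labelled R1881. The 3 deposited values of PSMD3 on the arrays labelled vehicle were exactly equal, so their spread is not known.

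PSMD8, a lid subunit, had the largest change of the members both between the labels R1881 and vehicle and from labelled R1881 to gedunin. It measured 2156, 2205 and 2135 on the arrays labelled vehicle, 988, 990.3 and 995 on those labelled R1881 and 1946, 1872 and 2043 with gedunin. The 3 arrays labelled R1881 were nearly equal and stood under every other value of the gene, 2.18-fold under labelled vehicle (-1.13 ± 0.05, SE, adjusted p = 2.95e-09). With gedunin the gene was 1.97-fold above labelled R1881 (0.98 ± 0.05, adjusted p = 1.89e-08) and lay below the arrays labelled vehicle without overlap (-0.15 ± 0.05, adjusted p = 0.0573). That last difference was called under 5 alternative settings, with adjusted p of 0.00696 to 0.0348, and without gedunin replicate 3 (-0.18, adjusted p = 0.0397). PSMD8 had 1 probe set.

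PSMD5, PSMD9 and PSMD10 encode chaperones that assemble the 19S base and leave the finished particle. They did not move together. PSMD5 measured 85.6, 95.5 and 97.4 under the label vehicle, 65.3, 68.2 and 73.6 under the label R1881 and 62.9, 50.5 and 66.5 with gedunin, with 1 value under the lowest array median. The vehicle values of PSMD5 were the highest 3, and it fell by 0.64 from labelled vehicle to gedunin (adjusted p = 0.000181) while its R1881 and gedunin values overlapped. A second PSMD5 probe set, with a mean intensity of 19.1, was at 0.02 from labelled vehicle to gedunin and not called (adjusted p = 0.924). PSMD10, also known as gankyrin, rose by 0.29 and 0.36 to gedunin from labelled R1881 and labelled vehicle. PSMD9 was called in no comparison, at 0.01 ± 0.06 from labelled R1881 to gedunin.

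The activators split. PSME4, which encodes PA200, measured 216, 224 and 212 under the label vehicle, 176, 194 and 167 under the label R1881 and 313, 285 and 298 with gedunin. Its groups did not overlap, and it rose 1.67-fold from labelled R1881 (0.74 ± 0.07, adjusted p = 1.87e-06), after PSMD8 the largest rise among members. The other PSME4 probe sets rose too, by 0.64 and 0.40, but disagreed between labelled R1881 and vehicle, at -0.28 and 0.28, and the mean of the probe sets was not called there (-0.09, adjusted p = 0.197). PSME1, the alpha subunit of the interferon-inducible PA28 ring, measured 824, 850.3 and 781, then 1119, 1169.6 and 1035, then 853, 867 and 851. Only its arrays labelled R1881 were raised: 1.35-fold over labelled vehicle (0.44 ± 0.06, adjusted p = 8.72e-05), with a fall of 0.37 to gedunin (adjusted p = 0.000388), whose values lay just above those labelled vehicle (0.07 ± 0.06, adjusted p = 0.498). PSME3, which encodes the nuclear PA28 gamma ring, measured 422, 444 and 383 under the label vehicle, 328, 325 and 303 under the label R1881 and 304, 303 and 341 with gedunin. It was higher under the label vehicle than in both other groups, with log2 differences of -0.38 to labelled R1881 and -0.40 to gedunin (adjusted p = 0.000891 and adjusted p = 0.000787), and the other groups overlapped.

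**Figure D4:**
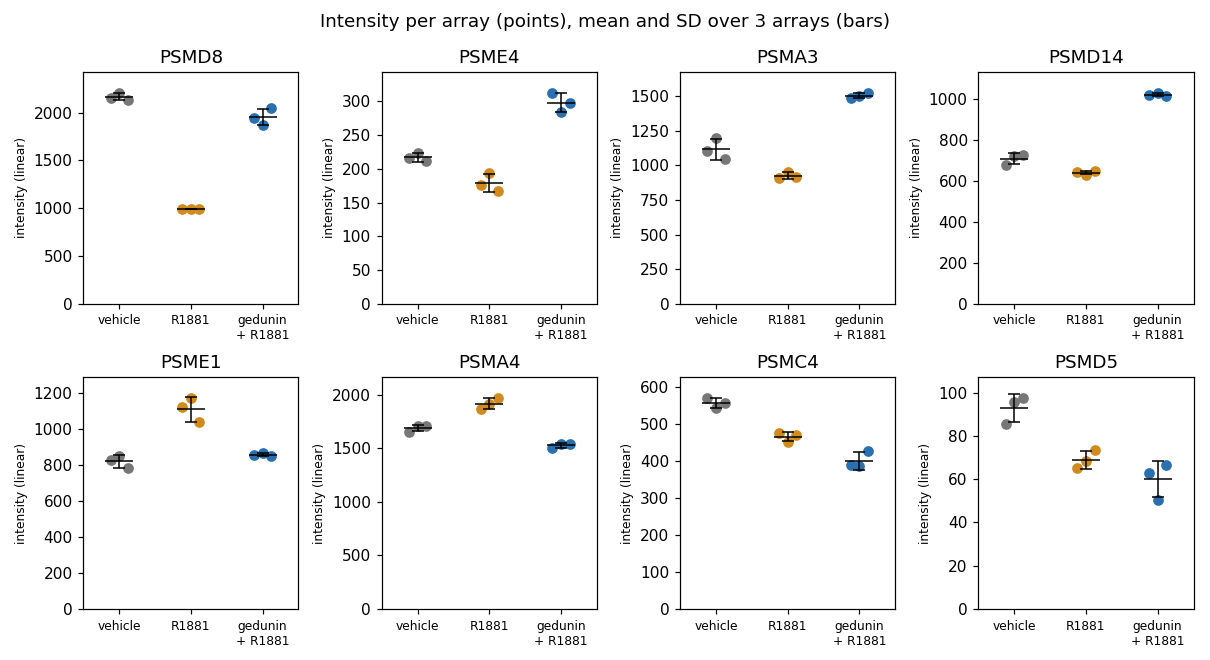
Intensity (y axis, linear, from 0) of 8 proteasome genes on each array (points), with the mean and SD of 3 arrays (bars), by labelled group (x axis). The upper row holds the 4 largest rises from labelled R1881 to gedunin (PSMD8, PSME4, PSMA3 and PSMD14), and the lower row 3 genes that fell (PSME1, PSMA4 and PSMC4) and PSMD5, which is lowest with gedunin and highest under the label vehicle.

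Several probe sets were present for 15 of the 36 genes. Between labelled R1881 and gedunin the folds of 0 of the 15 lay over 1.5 times apart and those of 1, PSME3, had opposite signs, all of them within 0.07 of 0. Folds lay over 1.5 times apart for 1 gene between the labels R1881 and vehicle, PSMC2, and for 1 from labelled vehicle to gedunin, PSMD5. Between the labels R1881 and vehicle 5 of the 15 (PSMC2, PSMD4, PSMD5, PSMD12 and PSME4) had probe sets of opposite sign, while 3 did so from labelled vehicle to gedunin (PSMA2, PSMD5 and PSMD9).

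Promoter sequence was set beside the values because many members moved together. Windows from 250 bases before to 50 after a gene's start, from RefSeq on GRCh38.p14, matched 31 of 36 measured genes with 36 windows, and PSMA7, PSMB1, PSMB6, PSMB7 and PSMD4 had none. Each window was searched on both strands for TGACNNNGC, the core of the antioxidant response element, CCAAT, the NF-Y box, CCGGAAG, an ETS site, and the heat shock element, which is GAA, TTC and GAA with 2 free bases between neighbours. The element core was found in 11 of 36 windows (30.6%), beside 14.3% of the 14058 windows of genes on the array with 1 symbol. The NF-Y box was in 16 (44.4% beside 35.1%), the ETS site in 9 (25% beside 13.1%) and the heat shock element in 0 (beside 0.405%). These matches are letters in a window and no measurement of binding. Shown here, 5′ to 3′ along the gene and from 150 bases before to 20 after the start, are the 4 largest rises from labelled R1881 to gedunin and then the largest fall, PSME1, each with a single window. Capitals mark every match to the motifs on either strand. The windows lie at chr19:38374421-38374590 (plus strand) for PSMD8, chr2:53970974-53971143 (minus strand) for PSME4, chr14:58244693-58244862 (plus strand) for PSMA3, chr2:161308275-161308444 (plus strand) for PSMD14 and chr14:24136044-24136213 (plus strand) for PSME1.
PSMD8: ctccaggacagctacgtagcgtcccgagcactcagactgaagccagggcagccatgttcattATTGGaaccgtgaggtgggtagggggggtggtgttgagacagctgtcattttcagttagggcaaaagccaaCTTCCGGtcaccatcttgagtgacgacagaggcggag
PSME4: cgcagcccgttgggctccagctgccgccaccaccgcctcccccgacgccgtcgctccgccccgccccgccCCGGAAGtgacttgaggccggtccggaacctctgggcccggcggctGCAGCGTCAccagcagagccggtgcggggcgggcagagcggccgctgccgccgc
PSMA3: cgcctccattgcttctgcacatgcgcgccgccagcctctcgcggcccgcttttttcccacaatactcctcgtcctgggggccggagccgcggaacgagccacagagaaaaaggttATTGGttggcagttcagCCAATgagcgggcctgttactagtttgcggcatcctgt
PSMD14: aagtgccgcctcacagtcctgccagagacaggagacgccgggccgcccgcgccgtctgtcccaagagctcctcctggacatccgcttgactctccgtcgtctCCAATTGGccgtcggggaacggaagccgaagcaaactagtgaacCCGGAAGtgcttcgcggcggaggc
PSME1: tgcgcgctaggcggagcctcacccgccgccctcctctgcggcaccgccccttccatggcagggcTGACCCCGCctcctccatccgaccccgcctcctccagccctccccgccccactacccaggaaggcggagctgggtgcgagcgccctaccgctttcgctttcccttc

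The 4 rising genes each held an NF-Y box or an ETS site in the stretch shown. The share of windows with either motif was not computed. An NF-Y box was also present in PSMA4, which fell, and in PSMB9 and PSME3, which were not called from labelled R1881 to gedunin. PSMA3 had NF-Y boxes in opposite orientation beginning 35 and 18 bases before the start, PSMD14 an inverted pair that shares 2 bases, beginning 48 and 45 bases before, and PSMD8 a single box beginning 88 bases before. An element core was present in PSME4, which rose, from 34 bases before the start, and likewise in PSME1, which fell, from 86 bases before, and in PSMC4, which fell, from 28 bases after, past the stretch shown. Of the 11 members with the core, 5 rose from labelled R1881 to gedunin (PSMB3, PSMD1, PSMD3, PSMD12 and PSME4), all 3 members that fell were among them (PSMA4, PSMC4 and PSME1), and 3 were not called (PSMB9, PSMD5 and PSMD9). Over all 36 measured members, including the 5 without a window, 26 rose (72.2%) and 3 fell, beside 14.0% and 13.4% of all genes. Whether the calls go with the core was not tested.

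Genes that work with the proteasome were taken from 6 lists. Of 7 measured genes of the p97 unfoldase, which extracts ubiquitin-tagged proteins and passes them on, all 7 rose from labelled R1881 to gedunin, with a median of 0.44, and 4 of 7 rose from labelled vehicle. UBXN4, UFD1 and NSFL1C, the largest of these, rose by 0.71, 0.68 and 0.66, and VCP, which encodes p97 itself and was taken up after its values were seen, by 0.44. Of 9 partners bound to the 19S cap, 6 rose and UBQLN2, a ubiquitin shuttle, fell by 0.45. ZFAND5, a proteasome-binding zinc finger gene, rose by 0.71, SEM1, the smallest lid subunit, by 0.51, and ADRM1, a ubiquitin receptor, by 0.45. Among 7 assembly and quality genes 2 rose and 0 fell, ECPAS by 0.76 and the core maturation factor POMP by 0.35, while PSMF1, which encodes the inhibitor PI31, was at 0.18 ± 0.07 and not called. PSMG2, a chaperone of the alpha ring, was higher under the label R1881 than under vehicle by 0.44. From labelled vehicle to gedunin 5 of the 9 partners rose, among them UBQLN2 by 0.41. The 1 that fell there was UBE3C, named after its values were seen, by 0.23 (adjusted p = 0.0487). UBQLN2 was also higher under the label R1881 than under vehicle, by 0.86, the largest change on that list. Of the 7 assembly genes 3 rose and 0 fell from labelled vehicle to gedunin. Under the label R1881 against vehicle, 0 of the unfoldase genes were higher and 3 lower, 1 of the partners higher and 2 lower, and 1 of the assembly genes higher and 0 lower. Of all genes 14.0% rose and 13.4% fell from labelled R1881 to gedunin, 15.0% and 11.9% from labelled vehicle to gedunin, and 16.7% were higher and 13.6% lower under the label R1881 than under vehicle.

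The list named for the NRF1 pathway, which also holds NFE2L2, KEAP1 and SQSTM1, had 7 measured genes. From labelled R1881 to gedunin 6 of the 7 rose and 0 fell, beside 14.0% and 13.4% of all genes. Among the 6 was MAFF, named after its values were seen, which rose by 0.19 and lay under the lowest array median on all 9 arrays. From labelled vehicle 4 rose (NFE2L2, KEAP1, MAFG and SQSTM1) and 0 fell, beside 15.0% and 11.9% of all genes. Under the label R1881 0 were higher and 2 lower than under vehicle, beside 16.7% and 13.6% of all genes. The exception in the first comparison was NFE2L1 itself, the gene of NRF1, with means of 523 ± 6.31, 526 ± 26.2 and 546 ± 12.4 on the arrays labelled vehicle, labelled R1881 and with gedunin, and a difference of 0.06 ± 0.06 that was not called (adjusted p = 0.542). NRF1 is known to be controlled by cleavage and degradation of its protein, which these arrays do not measure. NFE2L2, which encodes the related factor NRF2, rose by 0.58, KEAP1, the gene of its inhibitor, by 0.57, their partner gene MAFG by 0.66 and SQSTM1, the gene of the autophagy receptor p62, by 1.68. Of 5 measured genes of ubiquitin supply, of 12 listed, UBE2S and UBE2K rose by 0.54 and 0.31 from labelled R1881 to gedunin and 0 fell. From labelled vehicle to gedunin 2 rose, UBE2S by 0.70 and UBB, named after its values were seen, by 0.19, while UBE2K was not called (adjusted p = 0.139). The 1 that fell there was the activating enzyme gene UBA1, by 0.42 (adjusted p = 0.000579). UBA1 was also the 1 of 5 lower under the label R1881 than under vehicle, by 0.34, where 0 were higher. The shares of all genes in these comparisons are those given above for the NRF1 list.

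Antigen presentation genes, the partners of the immunoproteasome, moved unevenly. From labelled R1881 to gedunin 5 of 13 rose and 1 fell, from labelled vehicle 3 rose and 2 fell, and 0 were higher and 4 lower under the label R1881 than under vehicle. The shares of all genes were 14.0% and 13.4%, 15.0% and 11.9%, and 16.7% and 13.6% in these comparisons, so the counts from labelled vehicle lie near theirs. The largest rises, of PDIA3 by 0.72 and CANX by 0.66, belong to general folding factors of the endoplasmic reticulum, and TAPBP, the gene of tapasin, named after its values were seen as the 1 that fell, did so by 0.54. The peptide transporter gene TAP1 was at 0.07 ± 0.08 from labelled R1881 to gedunin (adjusted p = 0.589) and rose by 0.29 from labelled vehicle to gedunin (adjusted p = 0.0175). B2M, the light chain of class I molecules, was 2.41-fold lower under the label R1881 than under vehicle and rose by 0.34 to gedunin.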

How the data were processed

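RNA from 9 LNCaP cultures, 3 per group, was measured on 1-colour Affymetrix arrays. The authors deposited 1 intensity per probe set, linear by its values and made with RMA per the submitters' processing notes, with software version and genome build not given in the sources used here. RMA makes the distributions of arrays alike, so a change in total RNA is not visible. Here the intensities were turned to log2 with no offset. The 62 control probe sets were left out, and the 19064 probe sets with exactly 1 symbol in the platform annotation, which can be old, gave 11963 genes, each by its brightest probe set. Symbols were checked against RefSeq, which changed 0 and left 12 probe sets without a match. Groups follow the sample titles.

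All 3 groups were fitted in 1 model with limma 3.58.1 in R 4.3.3 (prior df 6.38), with Benjamini-Hochberg adjustment over all genes. The threshold was an adjusted p of 0.05. The members and lists were chosen with earlier results of these data known. Values per array are given for the 6 called members with the largest change from labelled R1881 to gedunin, the 4 largest in each other comparison and the measured genes among PSMB5 to PSMB10 and PSME1 to PSME4. From each list the 3 called genes with the largest change in any comparison were named, with NFE2L1, NFE2L2, POMP, ADRM1, PSMF1 and TAP1 whatever their values; 1 further gene of that rule is not reported here. The fit was tested on simulated data. Alternatives were median centring, repeated quantile normalisation, a filter on dim genes, an offset of 16, other probe set choices, a trend with robust prior, fits of the compared groups alone, the replicate number as a block and leaving out each array. The number of arrays limits the precision, and the median SE of a member was 0.0584 on the log2 scale.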

Additional observations from a re-analysis of the deposited data

How the results depend on the processing

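From labelled R1881 to gedunin, member counts stayed within 1.5 times of the given ones under every alternative but the plain _at probe sets. That choice leaves 25 members, of which 18 were called and 15 higher, with a median log2 fold change of 0.23. From labelled vehicle 12 of the 25 were called and 10 higher, with a median of 0.10 beside 0.25 in the fit as given. Some genes, such as PSMB1 and PSMD11, are then given by a dimmer probe set, which for these genes was called in neither comparison. With that choice the median between the labels R1881 and vehicle was -0.13. The choice leaves 8361 genes, of which 2181, 1901 and 1897 were called between the labels, from labelled R1881 and from labelled vehicle. Repeating the quantile normalisation gave medians of -0.022 between the labels R1881 and vehicle and 0.23 from labelled R1881 to gedunin, and 7 members higher in the former. The filter on dim genes, which leaves 34 members, gave a median of -0.10 between the labels. Members lower from labelled vehicle to gedunin were 5 with that filter, the offset, the mean of probe sets and the trend with robust prior. The cause of these shifts was not tested.

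Leaving out 1 array at a time gave 15 to 18 members called between the labels R1881 and vehicle, 2 to 4 of them higher and 11 to 14 lower, 26 to 29 called from labelled R1881 to gedunin, with 23 to 26 higher, and 23 to 26 from labelled vehicle, with 20 to 23 higher. The medians ranged from -0.09 to -0.05, from 0.28 to 0.33 and from 0.22 to 0.27.

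Signs turned for PSMC2 between the labels with the plain _at probe set (0.25) and otherwise for values near 0. PSME3 from labelled R1881 to gedunin was 0.0021 with median centring and ran from -0.067 to 0.016 with 1 array left out. With the quantile normalisation repeated PSMB7 between the labels was 0.021 and PSMB10 from labelled vehicle to gedunin -0.0013. With 1 array left out, PSMB10 from labelled vehicle to gedunin ran from -0.031 to 0.061, PSMB9 from -0.11 to 0.11 between the labels and from -0.030 to 0.19 from labelled vehicle, and PSMB8 from -0.010 to 0.11 between the labels, from -0.059 to 0.059 from labelled R1881 and from -0.010 to 0.092 from labelled vehicle. PSMB8 against PSMB5 from labelled vehicle to gedunin reached 0.0025 without vehicle replicate 1 and 0.065 without gedunin replicate 3.

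With the replicate number as a block, 17, 29 and 25 members were called in the 3 comparisons, with 3 rather than 4 higher between the labels R1881 and vehicle. Among the members chosen by rule for values per array, which were read out under each alternative, the block changed no call. Deviations of same-numbered arrays correlated from -0.11 to 0.13, those of other numbers from -0.15 to 0.17, and an array correlated best with its own number in 6 of 18 cases, so the numbers are not shown to pair arrays.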
